A study of Mus musculus with 12 samples.

Results

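Melanin synthesis and melanosome genes were followed in RNA-seq libraries of mouse eye tissue after intermittent fasting and sodium iodate injury. The 10 genes were chosen with earlier results of these data known, by name, as the rows of the deposited gene count table with the symbols Tyr, Tyrp1, Dct, Pmel, Mlana, Slc24a5, Slc45a2, Oca2, Gpr143 and Mitf. Each symbol matched a single row, giving 10 of the 21930 genes in the table. All 10 passed the filter on low counts in every comparison.

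Melanin is made inside melanosomes, lysosome-related organelles of the retinal pigment epithelium (RPE) and of the melanocytes of the choroid. Tyrosinase (Tyr) carries out the first, rate-limiting step of synthesis from tyrosine, and Tyrp1 and Dct act on later intermediates, while Pmel forms the fibrils on which the pigment is laid down and membrane transporters set the ion content and pH of the organelle. In the RPE most pigment is laid down during development, and the mature cells keep their melanosomes, which absorb stray light and bind metals.

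The study asked whether intermittent fasting before injury alters the response of the eye to sodium iodate (NaIO3), an oxidant that damages the RPE first and the photoreceptors after it. The 4 groups were of male wild-type C57BL/6J mice, 8 weeks old at the start, with 3 libraries per group. AL+PBS and AL+NaIO3 mice fed freely (ad libitum, AL), and IF+PBS and IF+NaIO3 mice were fasted and fed in turn for 24 h each (intermittent fasting, IF). After 12 weeks on the diet each mouse received a single intraperitoneal injection of 25 mg/kg NaIO3, or of PBS as the control, and tissue was taken 7 days later. No group carried a transgene or a deletion, and C57BL/6J is a pigmented strain. The labels call the tissue a complex of RPE, choroid and sclera, whereas the protocols name eye cups, and RPE, choroid and neural retina were not separated by any sort. The labels and the RNA-seq methods give the number of samples but do not say whether the libraries of a group came from separate animals, so the p-values below measure only the spread between these libraries. In bulk tissue, fewer cells of a type and less RNA per cell cannot be told apart.

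The libraries held 26364665 to 43046950 counted reads (median 31822705). Levels are given as CPM, the reads of a gene relative to the library total after scaling by the trimmed mean of M values (TMM, factors 0.934 to 1.14), and levels of different genes are compared only as the deposited FPKM, which divide by transcript length. The RPE markers were present in every library, with Rpe65, the retinoid isomerase of the visual cycle, at 103 to 143 CPM in AL+PBS, but the 14 photoreceptor markers summed to 60899 to 63798 CPM in that group, so neural retina was part of the tissue. AL+NaIO3 replicate 3 stood apart from the other 11 libraries. It held the highest level of 26.1% of the 15970 genes tested over all libraries and the lowest level of 23.6%, and the comparisons of the melanin genes that use it are given with and without it.

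Upstream sequence was examined because Mitf, itself one of the 10 genes, encodes a transcription factor that binds the sequence CATGTG, most strongly with a T before it (TCATGTG). RefSeq promoter windows (GRCm38.p6, 250 bases before to 50 bases after the annotated start) were found for 6 of the 10 genes, Tyr, Tyrp1, Dct, Slc24a5, Oca2 and Mitf, and the windows were searched on both strands. CATGTG stood in 5 of the 6 genes, against 15.9% of the 27025 genes with windows. TCATGTG, which contains CATGTG, stood in 4 of the 6, against 4.31% of those genes. CACGTG, another sequence that Mitf and its relatives bind, stood in 0 of the 6 (8.09% of genes), and TAATCC, bound by Otx2, in 3 of the 6 (8.14%). TCATGTG began at -22 from the start of Tyr and at -47 from that of Tyrp1, counting the first base upstream as -1, at -151 and, reading the other strand, at -232 in Dct, and on the other strand at -13 in Slc24a5. The match of Tyrp1 lies inside the gene as the deposited table gives it, among 90 bases left out of its window, so Tyrp1 is not shown. For the remaining genes with CATGTG, Tyr, Dct, Slc24a5 and Oca2, the bases upstream of the start and outside the gene are shown from 5′ to 3′ along its strand. Matches to these motifs are in capitals (CACATGA and CACATG are TCATGTG and CATGTG read on the other strand, and TAATCC is the Otx2 motif). The sequences come from chr7:87493513-87493762 for Tyr (minus strand), chr14:118052247-118052496 for Dct (minus strand), chr2:125067877-125068123 for Slc24a5 (plus strand) and chr7:56239509-56239758 for Oca2 (plus strand).
Tyr: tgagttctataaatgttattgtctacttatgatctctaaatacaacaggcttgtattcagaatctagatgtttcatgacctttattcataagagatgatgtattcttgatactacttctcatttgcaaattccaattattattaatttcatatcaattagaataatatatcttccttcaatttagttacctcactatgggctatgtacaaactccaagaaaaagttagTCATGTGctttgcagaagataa
Dct: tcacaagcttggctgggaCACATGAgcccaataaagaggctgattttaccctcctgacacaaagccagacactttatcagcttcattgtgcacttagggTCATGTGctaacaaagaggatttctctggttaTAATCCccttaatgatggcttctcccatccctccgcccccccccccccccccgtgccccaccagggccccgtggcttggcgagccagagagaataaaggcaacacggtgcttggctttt
Slc24a5: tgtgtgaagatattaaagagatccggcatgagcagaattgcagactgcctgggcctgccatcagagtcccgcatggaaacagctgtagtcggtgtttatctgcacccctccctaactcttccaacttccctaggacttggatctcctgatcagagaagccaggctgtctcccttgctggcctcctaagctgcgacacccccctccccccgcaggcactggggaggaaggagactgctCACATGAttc
Oca2: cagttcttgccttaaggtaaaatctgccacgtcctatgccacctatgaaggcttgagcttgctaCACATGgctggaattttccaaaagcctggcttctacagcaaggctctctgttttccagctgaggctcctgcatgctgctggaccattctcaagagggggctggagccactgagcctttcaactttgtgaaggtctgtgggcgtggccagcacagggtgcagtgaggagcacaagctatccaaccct
A match describes the letters of the window and not a bound site. Slc24a5, whose libraries were ordered unlike those of Tyr and Dct in the values below, carried TCATGTG as they did.

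In the uninjured AL+PBS libraries the 10 genes spanned a wide range of levels per transcript length. Dct was the highest, with a mean of 65.7 FPKM (range 60.7 to 72.2), and did not overlap the next gene, Mlana, at 19.6 FPKM (14.5 to 26.9). Pmel at 15.4 FPKM (10.8 to 19.8), Tyrp1 at 10.9 FPKM (7.53 to 14.4) and Slc24a5 at 8.31 FPKM (6.99 to 10.9) followed, each overlapping its neighbours. Below them stood Mitf at 2.66 FPKM (1.53 to 3.71) and Oca2 at 2.03 FPKM (1.91 to 2.14), which overlapped each other. Tyr at 1.55 FPKM (1.38 to 1.69), Slc45a2 at 1.28 FPKM (1.07 to 1.65) and Gpr143 at 1.04 FPKM (0.948 to 1.10) were the lowest. Tyr did not overlap Oca2 but overlapped Slc45a2, and Slc45a2 overlapped Gpr143. The enzyme of the first step was therefore among the lowest of the set and Dct, which isomerises dopachrome, by far the highest.

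The 3 enzymes shared a pattern over the libraries. Tyr (ENSMUSG00000004651, chr7:87424771-87493512, minus strand) was at 11.6, 10.2 and 12.4 CPM in AL+PBS replicates 1 to 3, at 8.82, 7.96 and 9.22 CPM in IF+PBS, at 8.92, 6.75 and 93.8 CPM in AL+NaIO3 and at 5.94, 5.93 and 6.93 CPM in IF+NaIO3. Apart from AL+NaIO3 replicate 3, each AL+PBS library was above every other library, and each IF+NaIO3 library was below every PBS library. Tyrp1 (ENSMUSG00000005994, chr4:80834123-80851719, plus strand), which stabilises tyrosinase and acts late in eumelanin synthesis, was at 47.3, 25.03 and 35.5 CPM in AL+PBS, at 23.2, 15.3 and 32.0 CPM in IF+PBS, at 25.2, 21.5 and 639 CPM in AL+NaIO3 and at 21.9, 12.9 and 18.5 CPM in IF+NaIO3. IF+NaIO3 lay below AL+PBS, the other groups overlapped, and AL+NaIO3 replicate 3 was far above the rest. Dct (ENSMUSG00000022129, chr14:118012790-118052244, minus strand) was at 182, 156 and 162 CPM in AL+PBS, at 124, 117 and 184 CPM in IF+PBS, at 161, 134 and 768 CPM in AL+NaIO3 and at 132, 81.8 and 115 CPM in IF+NaIO3. The IF+NaIO3 libraries of Dct were below all AL+NaIO3 and all AL+PBS libraries but overlapped IF+PBS.

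The melanosome matrix genes behaved much like the enzymes. Pmel (ENSMUSG00000025359, chr10:128704195-128720238, plus strand), the fibril protein, was at 51.2, 28.3 and 40.1 CPM in AL+PBS, at 29.6, 17.2 and 39.1 CPM in IF+PBS, at 29.6, 15.3 and 417 CPM in AL+NaIO3 and at 20.6, 12.1 and 14.3 CPM in IF+NaIO3. Only replicate 3 of AL+NaIO3 left the range of the PBS libraries upward. Mlana (ENSMUSG00000024806, chr19:29697824-29708634, plus strand), a small membrane protein that helps Pmel mature, was at 29.5, 19.3 and 15.7 CPM in AL+PBS, at 16.3, 11.6 and 21.4 CPM in IF+PBS, at 12.7, 12.2 and 68.0 CPM in AL+NaIO3 and at 12.1, 6.09 and 8.97 CPM in IF+NaIO3. Replicates 1 and 2 of AL+NaIO3 lay below all AL+PBS libraries, and all IF+NaIO3 libraries lay below all AL+NaIO3 libraries.

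Among the transporters, Slc24a5 was ordered differently from the others. Slc24a5 (ENSMUSG00000035183, chr2:125068124-125088677, plus strand), a potassium-dependent sodium/calcium exchanger, was at 24.8, 16.6 and 16.6 CPM in AL+PBS, at 31.2, 34.8 and 31.4 CPM in IF+PBS, at 26.01, 35.5 and 70.0 CPM in AL+NaIO3 and at 17.1, 22.6 and 18.8 CPM in IF+NaIO3. All IF+PBS and all AL+NaIO3 libraries were above all AL+PBS and all IF+NaIO3 libraries. Slc45a2 (ENSMUSG00000022243, chr15:11000721-11029233, plus strand), which helps to keep the melanosome from becoming acidic, was at 5.99, 3.94 and 4.11 CPM in AL+PBS, at 3.59, 1.93 and 4.10 CPM in IF+PBS, at 3.27, 2.49 and 41.8 CPM in AL+NaIO3 and at 3.53, 2.84 and 2.18 CPM in IF+NaIO3. Oca2 (ENSMUSG00000030450, chr7:56239760-56536518, plus strand), a melanosomal anion channel, was at 8.13, 7.96 and 7.75 CPM in AL+PBS, at 7.38, 6.46 and 6.58 CPM in IF+PBS, at 5.58, 2.74 and 25.6 CPM in AL+NaIO3 and at 5.39, 3.64 and 3.95 CPM in IF+NaIO3. Both genes were highest in AL+NaIO3 replicate 3, and for Oca2 all IF+NaIO3 libraries were below all IF+PBS libraries, which in turn were below all AL+PBS libraries.

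The remaining genes are a receptor and a regulator. Gpr143 (ENSMUSG00000025333, chrX:152781921-152808646, plus strand), a G protein-coupled receptor of the melanosome membrane, was at 1.95, 1.91 and 2.14 CPM in AL+PBS, at 3.18, 1.76 and 1.46 CPM in IF+PBS, at 0.930, 1.32 and 6.91 CPM in AL+NaIO3 and at 2.04, 0.579 and 1.04 CPM in IF+NaIO3. It was the least deeply counted of the set, with 21 reads in its lowest library and 260 in its highest. Mitf (ENSMUSG00000035158, chr6:97807052-98021349, plus strand) was at 13.5, 4.04 and 16.5 CPM in AL+PBS, at 3.05, 12.2 and 15.0 CPM in IF+PBS, at 11.9, 13.3 and 34.4 CPM in AL+NaIO3 and at 14.6, 12.8 and 13.5 CPM in IF+NaIO3. AL+PBS replicate 2 and IF+PBS replicate 1 were low against the other libraries of their groups, and all groups overlapped, also without these libraries. In those libraries the CPM of Mitf per FPKM, which rises with the transcript length behind the FPKM, was also low, 2.60 and 2.57 against a median of 5.60 over the 12 libraries. The highest library exceeded the lowest 2.34 times in this measure for Mitf and 1.03 to 1.14 times for the other 9 genes.

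**Figure D1:**
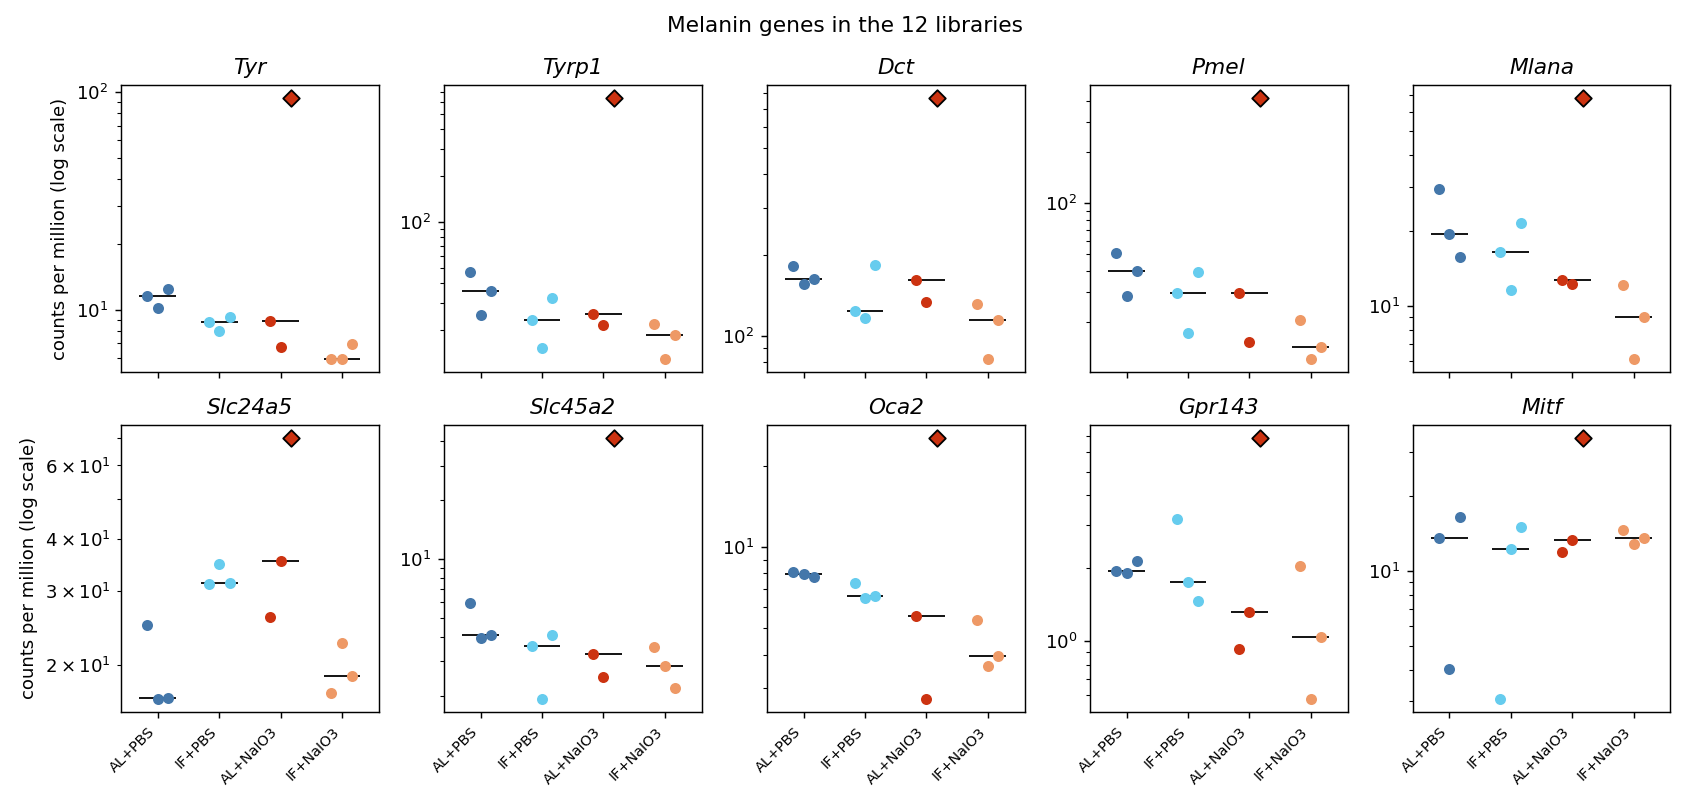
Level of each of the 10 melanin genes in CPM (log axis) by group, where each point is a library, diamonds mark AL+NaIO3 replicate 3 and horizontal lines are group medians. The diamond is the highest of 12 libraries in every panel, from 6.91 CPM for Gpr143 to 768 CPM for Dct.

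After NaIO3 on the free diet, the median log2 fold change of the melanin genes was 1.15, and every one had a higher mean than in AL+PBS, but this rested on a single library. Tyrp1 had the largest value, 2.69 (SE 1.22, 95% CI -0.12 to 5.51, adjusted p = 0.505 by edgeR's quasi-likelihood test), followed by Pmel at 1.97 (SE 1.08, adjusted p = 0.572), Slc45a2 at 1.79 (SE 0.99, adjusted p = 0.575) and Tyr at 1.70 (SE 0.91, adjusted p = 0.562). None of the 10 was called, which took an adjusted p under 0.05 together with at least a 1.5-fold difference, where 12 of 15612 genes did (0.0769%). At an unadjusted p under 0.05 there was 1, Slc24a5, higher by 1.20 (SE 0.37, adjusted p = 0.324), where 7.51% of genes tested were higher at that p. Slc24a5 was also the only one whose AL+NaIO3 libraries were all above the AL+PBS libraries (9.67% of genes tested). DESeq2 called Slc24a5 alone of the 10 (adjusted p = 0.0395, where it called 2.63% of genes) and gave no p-value to Tyr, Tyrp1, Pmel and Slc45a2, as it does where a single library lies far from its group. It did so for 33 of the 15612 genes (0.211%).

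Without AL+NaIO3 replicate 3, 8 of the 10 genes were lower after NaIO3 than in AL+PBS and the median log2 fold change was -0.66. Oca2 was at -0.93 (SE 0.31, adjusted p = 0.285 by edgeR's quasi-likelihood test), Pmel at -0.83 (SE 0.31, adjusted p = 0.338), Mlana at -0.79 (SE 0.26, adjusted p = 0.280), Tyrp1 at -0.62 (SE 0.25, adjusted p = 0.360) and Tyr at -0.54 (SE 0.20, adjusted p = 0.332). These 5 had an unadjusted p under 0.05, against 5.42% of genes tested in the lower direction, and Slc24a5 at 0.67 (SE 0.22, adjusted p = 0.281) was the sixth, against 6.80% in the higher direction. Tyr, Mlana, Slc45a2, Oca2 and Gpr143 had both remaining AL+NaIO3 libraries below all AL+PBS libraries (15.2% of genes tested), and Slc24a5 had both above (15.0%). Again 0 of the 10 were called, where 90 of 15731 genes were (0.572%). Thus the sign of 8 genes, all but Slc24a5 and Mitf, turned with the presence of a single library, and in neither setting did a difference pass edgeR's test. Markers of other cells differed in this comparison too. All 9 macrophage and microglia markers had AL+NaIO3 libraries above all AL+PBS libraries (9.67% of genes tested). Their median was 2.45, or 1.69 with 4 called without replicate 3 (0.394% of genes, higher direction). All 6 melanocyte and neural crest markers were higher (median 0.71, or 0.18 with 4 higher without replicate 3), as were all 5 of stroma (1.62, or -0.44) and all 5 of endothelium (0.97, or 0.25), while 12 of 14 photoreceptor markers were lower (-0.51, or -0.21 with 9 lower). All 3 surface epithelium markers were higher (1.88, or 2.37). Their sum was 15.7 CPM in replicate 3 and 28.8 and 346 CPM in the other AL+NaIO3 libraries, against 17.4 to 35.5 CPM in AL+PBS. Of 4 lens markers tested 3 were lower (-3.75, or -3.96 with 6 of 6 lower). The lens markers summed to 6.57 to 207 CPM in AL+PBS and 3.50 to 9.48 CPM in AL+NaIO3. The part of these cells in the melanin gene levels was not tested.

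**Figure D2:**
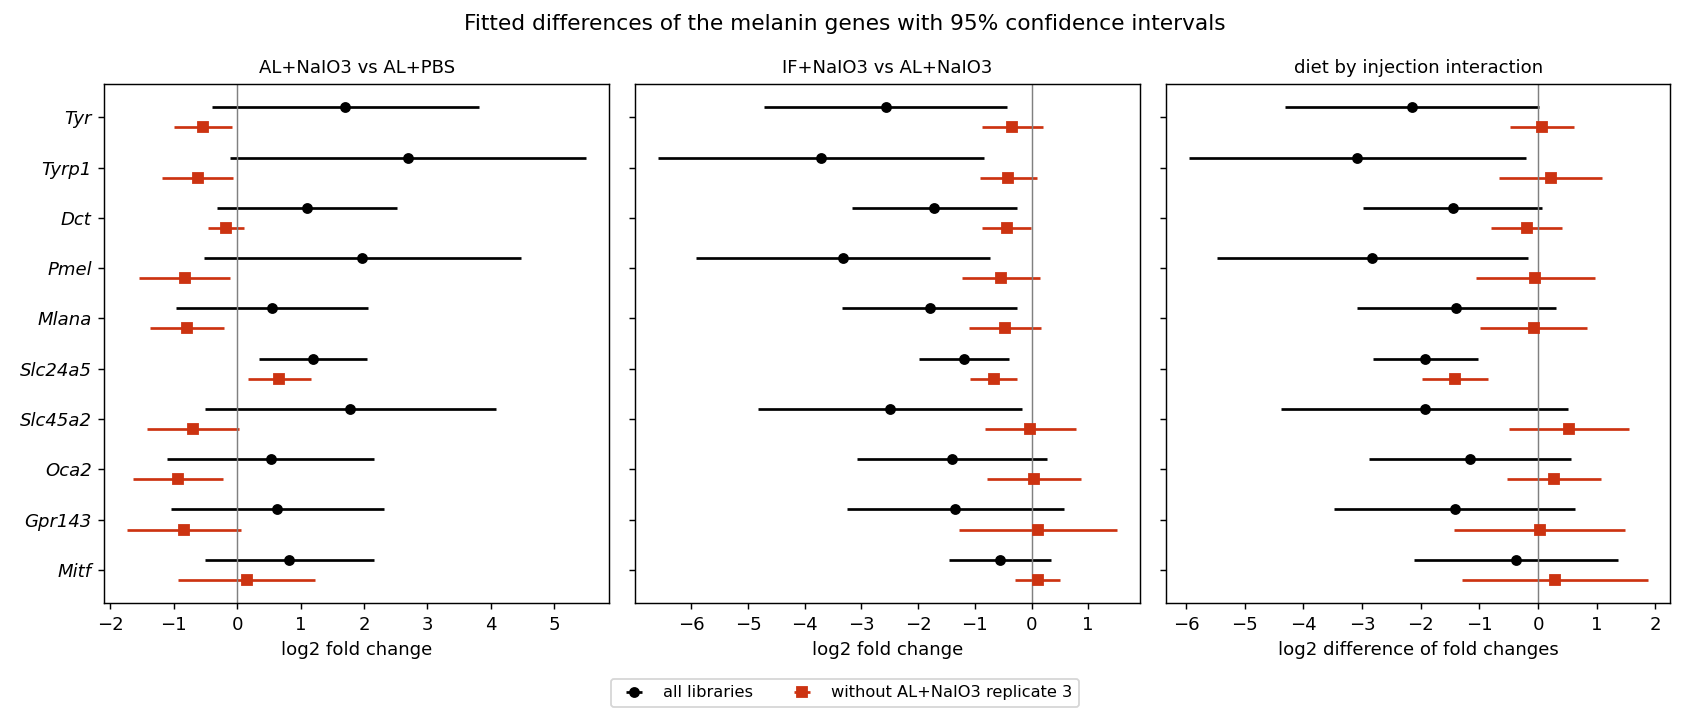
Log2 fold change of each melanin gene (x axis) with its 95% confidence interval in 2 comparisons and in the diet by injection interaction, with all libraries (black) and without AL+NaIO3 replicate 3 (red squares). In AL+NaIO3 vs AL+PBS the median moved from 1.15 to -0.66 when the library was left out, and Slc24a5 kept its sign in all 3 panels.

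Between the NaIO3 groups all 10 genes were lower on the fasting diet, with a median log2 fold change of -1.75 in IF+NaIO3 against AL+NaIO3. Tyrp1 was at -3.71 (SE 1.25, adjusted p = 0.342 by edgeR's quasi-likelihood test), Pmel at -3.32 (SE 1.13, adjusted p = 0.345) and Tyr at -2.57 (SE 0.93, adjusted p = 0.363). Dct at -1.71 (SE 0.63, adjusted p = 0.369), Mlana at -1.79 (SE 0.67, adjusted p = 0.374) and Slc24a5 at -1.19 (SE 0.34, adjusted p = 0.282) were the 3 whose IF+NaIO3 libraries all lay below the AL+NaIO3 libraries (10.1% of genes tested). No melanin gene was called (6 of 15648 genes, 0.0383%), and 7 had an unadjusted p under 0.05, where 8.22% of genes tested were lower at that p. DESeq2 called Slc24a5 (adjusted p = 0.0257, where it called 3.05% of genes) and no other of the 10, again giving no p-value to Tyr, Tyrp1, Pmel and Slc45a2.

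Without AL+NaIO3 replicate 3 the median of that comparison was -0.37, with 7 genes lower and 3 higher. Slc24a5 was at -0.67 (SE 0.18, adjusted p = 0.239 by edgeR's quasi-likelihood test), Mlana at -0.47 (SE 0.28, adjusted p = 0.710) and Dct at -0.44 (SE 0.19, adjusted p = 0.533), and the groups of these 3 still did not overlap (13.1% of genes tested). Slc24a5 and Dct had an unadjusted p under 0.05 (5.93% of genes tested, lower direction). Slc45a2, Oca2, Gpr143 and Mitf lay between -0.02 and 0.11. There were 0 melanin genes among the 75 of 15740 genes called (0.476%). Markers of other cells were lower in this comparison as well. All 9 macrophage and microglia markers had IF+NaIO3 libraries below all AL+NaIO3 libraries (10.1% of genes tested). Their median was -2.48, or -1.79 with 3 called without replicate 3 (0.445% of genes, lower direction). All 5 stroma markers were lower, with a median of -2.02, or -0.37 without it. All 7 skeletal muscle markers (median -0.58, or -0.89 without it) and all 3 of surface epithelium (-1.29, or -1.78) were lower too. The surface epithelium markers summed to 15.7 CPM in replicate 3 and to 28.8 and 346 CPM in the other AL+NaIO3 libraries, against 11.2 to 70.4 CPM in IF+NaIO3. All 6 markers of melanocytes and neural crest were lower (-0.59, or -0.26 with 5 lower), while all 14 photoreceptor markers were higher (0.53, or 0.18 with 11 higher). The part of these cells in the melanin gene levels was not tested.

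In IF+PBS against AL+PBS 8 of the 10 genes were lower, with a median log2 fold change of -0.31. Tyr was at -0.40 (SE 0.15, adjusted p = 0.247 by edgeR's quasi-likelihood test) and Oca2 at -0.22 (SE 0.16, adjusted p = 0.499), and for both every IF+PBS library was below every AL+PBS library (11.2% of genes tested). Slc24a5 was higher by 0.75 (SE 0.16, 95% CI 0.39 to 1.11, adjusted p = 0.175), with every IF+PBS library above every AL+PBS library (10.6%). No gene of 15361 was called (0%), though 17.1% had an unadjusted p under 0.05, 8.22% higher and 8.85% lower. Of the melanin genes Tyr, Tyrp1 and Slc24a5 had such a p. With DESeq2, 192 genes were called (1.25%), of which Slc24a5 was the only melanin gene (adjusted p = 0.00336). Markers of some other tissues differed as well, though edgeR called 0 of them. All 7 skeletal muscle markers had IF+PBS libraries below all AL+PBS libraries (median log2 fold change -1.76), as did 4 of 5 stroma markers (median -0.88) and 2 of 3 surface epithelium markers (-1.96), whereas 11 of 14 RPE markers were higher (0.29). All 3 erythrocyte markers were lower (-0.43), and the lens markers summed to 6.57 to 207 CPM in AL+PBS and 2.12 to 2.94 CPM in IF+PBS. Of these markers DESeq2 called 1 of muscle, 4 of stroma, 2 of surface epithelium and 1 of erythrocytes lower (0.710% of genes), and of the 14 photoreceptor markers 1 higher (0.540%). In edgeR's fit, however, 10 of the 14 photoreceptor markers were lower and 4 higher, with a median of -0.06. All IF+PBS libraries lay below all AL+PBS libraries for 4 of them (11.2% of genes tested) and above for 2 (10.6%). The part of these tissues in the melanin gene levels was not tested.

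On the fasting diet NaIO3 went with lower levels of 9 of the 10 genes, a comparison that does not use AL+NaIO3 replicate 3. The median log2 fold change in IF+NaIO3 against IF+PBS was -0.56. Pmel was at -0.86 (SE 0.28, adjusted p = 0.226 by edgeR's quasi-likelihood test), Mlana at -0.85 (SE 0.28, adjusted p = 0.226), Slc24a5 at -0.73 (SE 0.13, 95% CI -1.02 to -0.45, adjusted p = 0.211), Oca2 at -0.65 (SE 0.22, adjusted p = 0.245) and Tyr at -0.47 (SE 0.18, adjusted p = 0.277). These 5 had an unadjusted p under 0.05, where 6.72% of genes tested were lower at that p. All IF+NaIO3 libraries lay below all IF+PBS libraries for Tyr, Slc24a5 and Oca2 (10.9%). No gene of 15305 was called (0%), and DESeq2 called 72 genes (0.470%), with Slc24a5 (adjusted p = 0.000645) and Pmel (log2 fold change -0.87, adjusted p = 0.0332) among them. DESeq2 gave an adjusted p to only 4 of the 10 melanin genes here, Tyrp1, Dct, Pmel and Slc24a5, and none to the other 6 or to 34.9% of all genes, so those could not be called. Mitf, at 0.44 (SE 0.42), was the exception in direction. In the same comparison all 14 RPE markers were lower, with a median of -0.60 and 10 not overlapping, and DESeq2 called 6 of them (0.183% of genes, lower direction) where edgeR called 0. All 7 skeletal muscle markers were higher (median 0.93), as were all 3 surface epithelium markers (2.34, with 2 not overlapping against 10.1% of genes), all 3 erythrocyte markers (0.65) and 4 of 5 stroma markers (0.39). Of these DESeq2 called 1 of surface epithelium, 2 of erythrocytes and 1 of stroma higher (0.287% of genes). The part of these tissues in the melanin gene levels was not tested.

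Whether the NaIO3 difference depended on the diet was tested by the diet by injection interaction over all 12 libraries. Its median over the 10 genes was -1.69 (log2), with Tyrp1 at -3.08 (SE 1.33, adjusted p = 0.397 by edgeR's quasi-likelihood test), Pmel at -2.82 (SE 1.22, adjusted p = 0.397) and Slc24a5 at -1.92 (SE 0.41, 95% CI -2.81 to -1.03, adjusted p = 0.153). These 3 had an unadjusted p under 0.05 (6.88% of genes tested, lower direction), and 0 of the 10 passed the adjusted threshold (5 of 15970 genes, 0.0313%). Without AL+NaIO3 replicate 3 the median was 0.05, and all but Slc24a5 lay between -0.19 and 0.53. Slc24a5 was then at -1.41 (SE 0.26, adjusted p = 0.0511), just outside a threshold that 32 of 16105 genes met (0.199%), and was the only melanin gene with an unadjusted p under 0.05 (5.41% of genes tested, lower direction). DESeq2 called it with all libraries (adjusted p = 0.00138, where it called 1.36% of genes) and gave no p-value to Tyr, Tyrp1 and Slc45a2.

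The 10 genes were not raised alike in AL+NaIO3 replicate 3. Against the median of the other 11 libraries, Tyrp1 was 27.5 times as high, Pmel 14.7, Slc45a2 11.8 and Tyr 10.6 times, where 1.17% of all genes tested were at least 10 times as high. Dct was 5.73 and Mlana 5.35 times as high (3.71% of genes at least 5 times), and Oca2 3.95, Gpr143 3.92, Slc24a5 2.82 and Mitf 2.59 times (14.0% at least 2 times). The median of the 10 was 5.54, against 0.989 over all genes. Per 100 counts of Dct, replicate 3 held 83.3 counts of Tyrp1 where the other libraries held 13.1 to 25.9, 54.3 of Pmel against 11.4 to 28.1, 12.2 of Tyr against 4.50 to 7.64 and 5.44 of Slc45a2 against 1.65 to 3.47. Mlana, at 8.86 per 100 counts of Dct against 7.44 to 16.2, and Oca2, at 3.33 against 2.04 to 5.96, stayed within the range of the others. In FPKM the order of the genes in this library was Dct 343, Tyrp1 239, Pmel 187, Mlana 72.2, Slc24a5 34.7, Tyr 14.997, Slc45a2 13.3, Oca2 7.88, Mitf 7.26 and Gpr143 4.44, so that Tyrp1 and Pmel stood above Mlana, the reverse of their group means in AL+PBS. At the other end, IF+NaIO3 replicate 2 held the lowest level of 6 of the 10 genes, where it held the lowest of 8.95% of all genes.

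Markers of several tissues moved with the melanin genes in that library. Over all genes tested, AL+NaIO3 replicate 3 held the highest level of 26.1% and the lowest of 23.6%, the shares to set beside the counts that follow. All 5 markers of stroma were highest there, with a median of 9.34 times the other libraries (Dcn, a proteoglycan of connective tissue, at 728 CPM), and their sum was 1243 CPM against 55.6 to 190 CPM in the other 11 libraries. Of the 9 macrophage and microglia markers, 8 were highest there (median 8.11 times), and their sum was 345 CPM, against 161 and 122 CPM in the other AL+NaIO3 libraries and 43.6 to 62.2 CPM in the rest. All 5 endothelial markers were highest there (2.55 times), as were 5 of 6 melanocyte and neural crest markers (2.88 times, sum 108 CPM against 27.5 to 40.7 CPM) and 4 of 7 Schwann cell markers (1.80 times). Of the 14 photoreceptor markers 13 were lowest there (0.315 times, sum 20718 CPM against 40782 to 69917 CPM). The RPE markers had 3 of 14 highest there, close to the share over all genes (0.878 times, sum 1508 CPM against 1175 to 3146 CPM). Rpe65 was at 0.484, Ttr, a thyroid hormone carrier abundant in the RPE, at 0.539 and Rlbp1, a retinoid-binding protein of RPE and Müller glia, at 0.980 times. Best1, an RPE chloride channel, was at 2.23 times but at a low level, 1.41 CPM there and at most 1.03 CPM in the other libraries. The part of these other tissues in the melanin gene levels was not tested.

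**Figure D3:**
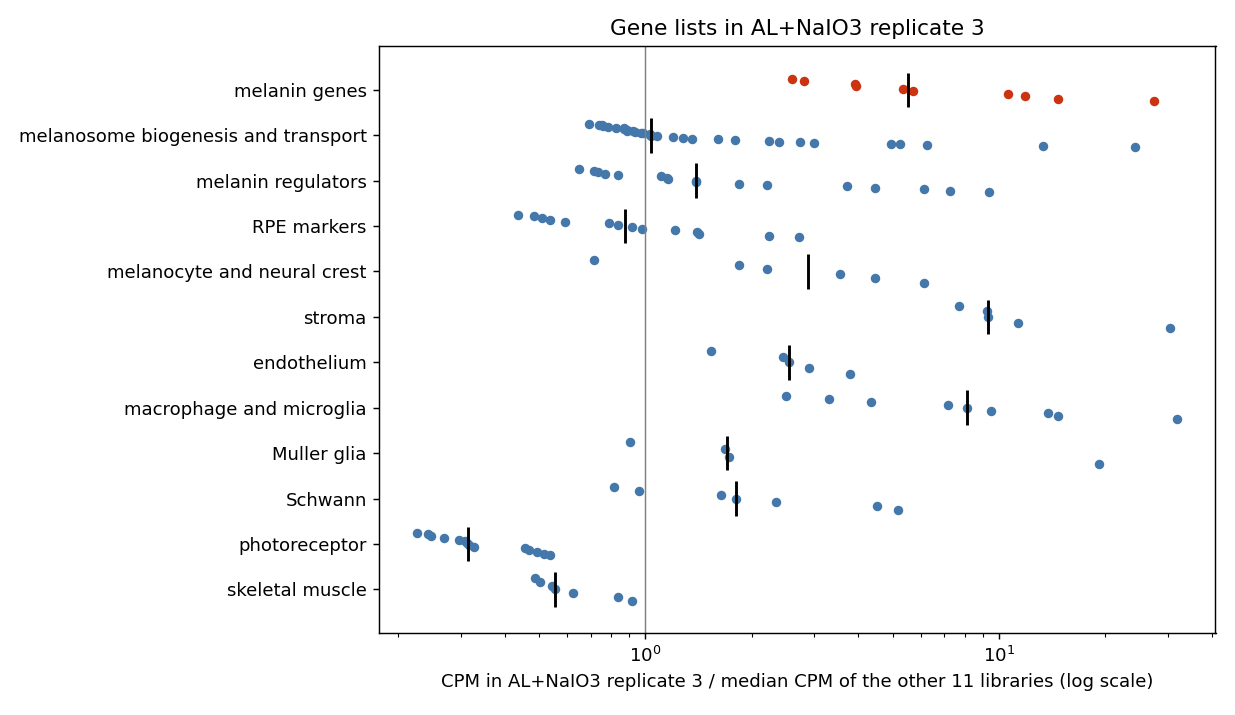
CPM in AL+NaIO3 replicate 3 divided by the median of the other 11 libraries (log axis) for each gene of 12 lists, where points are genes and bars are list medians (genes with no ratio or a ratio of 0 are left out). The 10 melanin genes (median 5.54) lie with the stroma (9.34) and macrophage (8.11) markers above 1, while the RPE markers (0.878) scatter around it and the photoreceptor markers (0.315) lie below.

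The wider machinery of the melanosome was split in the same library. Of 32 genes of melanosome biogenesis and transport, 13 were highest there (26.1% of genes tested) and 4 lowest (23.6%), with a median of 1.04 times the other libraries. The 16 subunits of the HPS, BLOC-1 and AP-3 complexes, which sort cargo to melanosomes but also to other organelles in many cells, lay between 0.691 and 1.61 times (median 0.953), and 0 of them reached 2 times. Of the other 16 genes 9 reached 2 times (median 2.31), against 14.0% of all genes tested, a division made after the values were seen. They included Gpnmb, a glycoprotein of melanosomes and of macrophage lysosomes, at 24.2 times (635 CPM), Mlph, the melanophilin that links melanosomes to actin motors, at 13.3 times (71.0 CPM), Rab32 at 6.25 and Rab38 at 5.27 times, both small GTPases that deliver tyrosinase and Tyrp1, and Rab27a, which recruits melanophilin, at 2.74 times. Of the 17 regulators tested 8 were highest there (26.1% of genes tested) and 3 lowest (23.6%), with a median of 1.39 times. Edn3, the endothelin that stimulates melanocytes, was 9.36 times and its receptor Ednrb 6.15 times as high, Pax3 4.46, Kitl 3.72 and Sox10 2.21 times. Lower than in the other libraries were Otx2 at 0.649, Mc1r, the melanocortin receptor of melanocytes, at 0.715, Creb1 at 0.734, Pomc at 0.767 and Usf1 at 0.834 times.

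In edgeR's quasi-likelihood test with all libraries none of these genes was called in any of the comparisons, and DESeq2 called 1, Rab32, in IF+NaIO3 against AL+NaIO3 (log2 fold change -2.09, adjusted p = 0.0210, where it called 2.72% of genes lower). Rab32 was at 7.41 CPM in AL+NaIO3 replicate 3, at 2.24 and 2.47 CPM in the other AL+NaIO3 libraries and at 0.693 to 1.19 CPM in IF+NaIO3, so the size of that difference depended on replicate 3. Of the 32 melanosome genes 22 were higher in AL+NaIO3 than in AL+PBS (median log2 fold change 0.10), from Gpnmb at 2.89 (SE 1.02, adjusted p = 0.390 by edgeR's quasi-likelihood test) to Myrip, an adaptor of melanosomes in the RPE, at -0.44 (SE 0.13, adjusted p = 0.321). Myrip was lower in each AL+NaIO3 library than in each AL+PBS library, as 2 of the 32 genes were (8.64% of genes tested). Of 17 regulators 14 were higher (median 0.40, or 9 and 0.03 without replicate 3), from Edn3 at 1.65 (SE 0.95, adjusted p = 0.593) to Otx2 at -0.17 (SE 0.17, adjusted p = 0.766). Between IF+NaIO3 and AL+NaIO3 the melanosome genes had a median of -0.06 (-0.02 without replicate 3), from Gpnmb at -3.51 (SE 1.02, adjusted p = 0.292) to Mreg, a melanosome transport factor, at 0.37 (SE 0.15, adjusted p = 0.404), and neither gene's groups overlapped. Of the 32 genes 4 had all IF+NaIO3 libraries below all AL+NaIO3 libraries, which is close to the share over all genes (10.1% of genes tested). Another 3 had all above, a count given without a share over all genes and not read as a trait of the list. The 16 regulators tested in this comparison had a median of -0.17 (-0.04 without replicate 3), from Edn3 at -2.33 (SE 0.99, adjusted p = 0.419) to Otx2 at 0.36 (SE 0.17, adjusted p = 0.466). Edn3 turned sign without AL+NaIO3 replicate 3, to -0.74 and 0.04 in these comparisons, while Gpnmb was at 0.45 and -1.09 (adjusted p = 0.489 and 0.0775). Over all genes tested the medians were 0.01 and -0.01.

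The RPE markers were lower after NaIO3 with and without AL+NaIO3 replicate 3. Over the 14 RPE markers the median for AL+NaIO3 against AL+PBS was -0.64 on the log2 scale, with 12 lower and 8 not overlapping (8.64% of genes tested). Slc16a8, the lactate transporter of the RPE, fell by 1.02 (SE 0.11, adjusted p = 0.0392 by edgeR's quasi-likelihood test) and was the 1 marker called, where 0.0256% of genes were called lower. DESeq2 called 5 of these markers lower (0.269% of genes) and the fit of all 12 libraries called 4 (0.157%). Rpe65 was at -1.29 (SE 0.17, adjusted p = 0.0672), Ttr at -0.96 (SE 0.14, adjusted p = 0.0935), Rlbp1 at -0.12 (SE 0.14, adjusted p = 0.808) and Best1, at most 1.41 CPM in any library, at 0.62 (SE 0.47, adjusted p = 0.691). Without replicate 3 the median was -1.08 and 7 RPE markers were called lower (0.178% of genes), among them Rpe65 at -1.39 (SE 0.17, adjusted p = 0.0142) and Ttr at -1.003 (SE 0.13, adjusted p = 0.0142). Between IF+NaIO3 and AL+NaIO3 9 of the 14 RPE markers were higher with a median of 0.32, or 12 of them with 0.71 without replicate 3. Here edgeR called 0 of them in the fit of 6 libraries and 1 (Slc16a8) in the fit of all 12 (0.125% of genes, higher direction), and DESeq2 called 3 higher (Rpe65, Rgr and Slc16a8, against 0.339%). In the edgeR test of the 6 libraries Rpe65 was at 0.93 (SE 0.28, adjusted p = 0.296), Ttr at 0.70 (SE 0.30, adjusted p = 0.426), Rlbp1 at 0.00 (SE 0.14) and Best1 at -1.24 (SE 0.57, adjusted p = 0.446).

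Set against the RPE markers, which were themselves lower after NaIO3, the summed melanin transcripts were higher in AL+NaIO3, as were most genes of the table. In replicates 1 and 2 of AL+NaIO3, 86.9% of the 15970 genes were above all AL+PBS libraries in this ratio. The 10 genes summed to 376, 274 and 313 CPM in AL+PBS, to 250, 226 and 345 CPM in IF+PBS, to 285, 245 and 2164 CPM in AL+NaIO3 and to 235, 161 and 203 CPM in IF+NaIO3. Per 1000 counts of the 14 RPE markers this was 167, 120 and 128 in AL+PBS, 98.7, 81.6 and 110 in IF+PBS, 205, 209 and 1435 in AL+NaIO3 and 102, 123 and 103 in IF+NaIO3. All AL+NaIO3 libraries were above all other libraries in this ratio, although in the sum itself replicates 1 and 2 did not exceed the range of AL+PBS. Dct made up 116 and 114 of the ratio in replicates 1 and 2. Summed without Dct and Slc24a5, a choice made after the values were seen, the ratio was 70.5, 64.3 and 880 in AL+NaIO3 against 74.9, 44.3 and 54.9 in AL+PBS, so that replicates 1 and 2 lay within the AL+PBS range. Gene by gene, replicates 1 and 2 were both above all AL+PBS libraries for 4 of the 10 melanin genes, Tyr, Dct, Slc24a5 and Mitf, against those 86.9% of all genes, and the other 6 overlapped. Pmel was at 17.2 on average in both, Oca2 at 3.17 against 3.42 and Gpr143 at 0.894 against 0.860. The mean log2 ratio over the 10 genes was higher by 1.32 in AL+NaIO3 than in AL+PBS, or by 0.42 without replicate 3, and the difference of IF+NaIO3 from AL+NaIO3 was -1.67, or -0.77 without it. It was -0.52 for IF+PBS against AL+PBS and 0.16 for IF+NaIO3 against IF+PBS. With Rpe65 alone as the denominator these 4 differences were 1.84, -2.13, -0.51 and 0.22, and the first 2 were 0.95 and -1.24 without replicate 3. These are descriptions with no test.

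**Figure D4:**
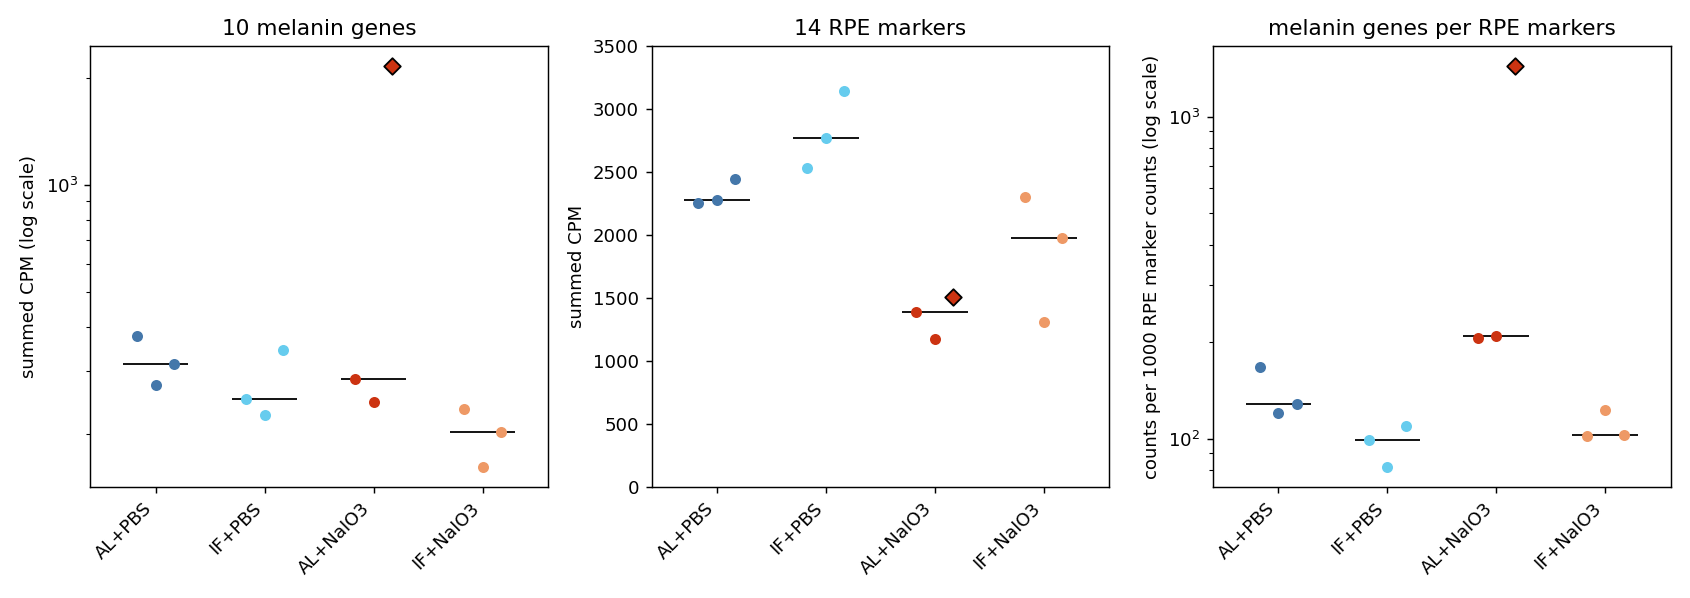
Summed CPM of the 10 melanin genes, summed CPM of the 14 RPE markers and the melanin sum per 1000 RPE marker counts, by group, where each point is a library and the diamond is AL+NaIO3 replicate 3. In the ratio the AL+NaIO3 libraries, at 205, 209 and 1435, lie above all others, which reach at most 167, while 86.9% of all genes were above AL+PBS in replicates 1 and 2.

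Slc24a5 and Mitf followed the rest of the family least over the libraries. Pearson's r of the log2 CPM of Slc24a5 with the mean of the other 9 melanin genes was 0.643 over 12 libraries and -0.108 over the 11 without AL+NaIO3 replicate 3, and that of Mitf was 0.418 and -0.205. Over the same 11 libraries r was 0.949 for Pmel, 0.924 for Tyrp1, 0.912 for Mlana, 0.881 for Dct, 0.810 for Tyr, 0.741 for Slc45a2, 0.685 for Oca2 and 0.491 for Gpr143. Over the 45 pairs of the 10 genes the median r was 0.842 with all libraries and 0.582 without that one. The libraries share groups and tissue composition, so these values describe them and carry no test.

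Slc24a5 lies over Myef2, a gene of the opposite strand that was counted much more deeply, with 47466 reads over the 12 libraries. Myef2, which encodes a repressor of myelin gene expression, was at 133, 132 and 137 CPM in AL+PBS, at 125, 85.1 and 108 CPM in IF+PBS, at 126, 98.5 and 97.5 CPM in AL+NaIO3 and at 123, 139 and 133 CPM in IF+NaIO3. It was thus higher in the groups where Slc24a5 was lower, with r of -0.739 between them over 12 libraries and -0.731 over 11. Its log2 fold changes were -0.31 in AL+NaIO3 vs AL+PBS (adjusted p = 0.480 by edgeR's quasi-likelihood test), 0.28 in IF+NaIO3 vs AL+NaIO3 (adjusted p = 0.477), -0.34 in IF+PBS vs AL+PBS (adjusted p = 0.243) and 0.31 in IF+NaIO3 vs IF+PBS (adjusted p = 0.308), each opposite in sign to that of Slc24a5. The kit marked strand, but the strand setting of the counting is not given in the sources used here, and how reads of the overlap were divided was not tested. Pmel also overlaps genes of the opposite strand, Dgka and Cdk2, with 7889 reads over both. In AL+NaIO3 replicate 3 Cdk2 was at 24.3 CPM, 2.75 times the median of the other libraries, and Dgka at 9.24 CPM, 0.939 times. Cdk2 had 914 reads in that library and Pmel 15691. The division of reads in this overlap was not tested either.

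**Figure D5:**
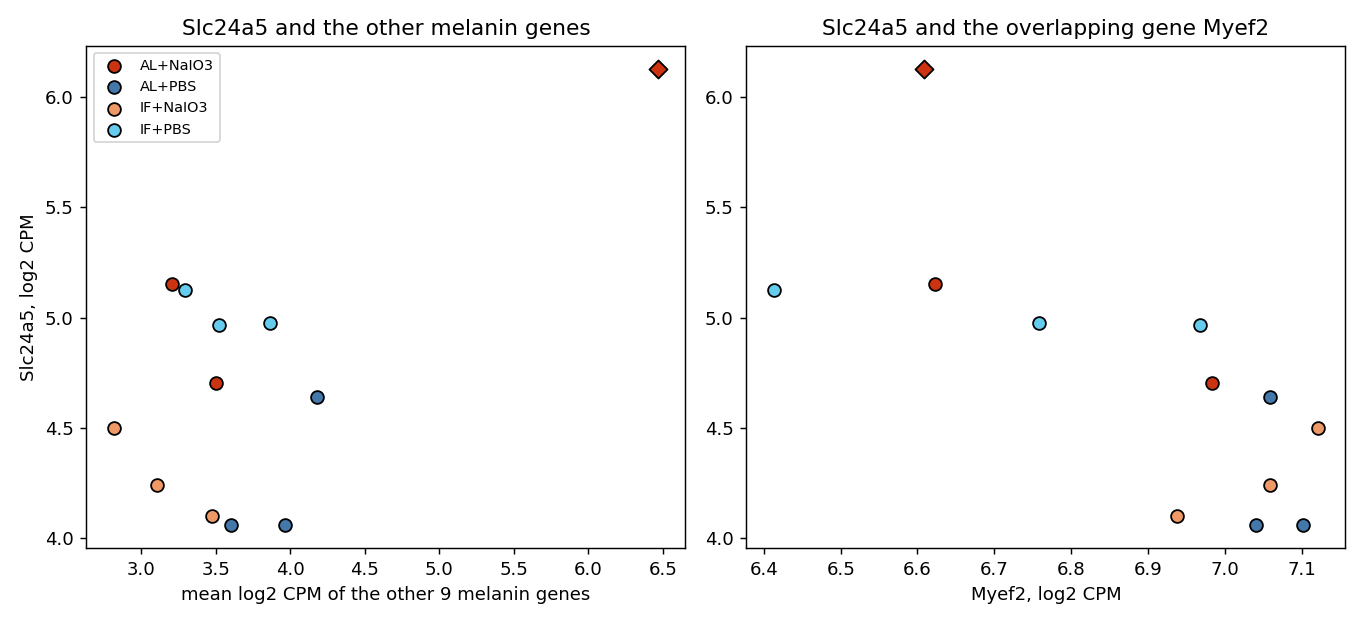
Log2 CPM of Slc24a5 (y axis) in the 12 libraries against the mean log2 CPM of the other 9 melanin genes and against Myef2, where each point is a library coloured by group and the diamond is AL+NaIO3 replicate 3. Without the diamond r is -0.108 with the other melanin genes, and with Myef2 it is -0.739 over all libraries.

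Per 1000 RPE marker counts, Slc24a5 was at 8.36 ± 2.30 in AL+PBS, 11.6 ± 1.42 in IF+PBS, 31.8 ± 13.9 in AL+NaIO3 and 11.4 ± 5.15 in IF+NaIO3 (mean ± SD, n = 3 each). Without replicate 3 the AL+NaIO3 mean was 24.5, still above every library of the other groups, in a ratio that set most genes of the table above AL+PBS. In CPM the AL+NaIO3 libraries were above those of AL+PBS and IF+NaIO3 but overlapped IF+PBS, whose mean of 32.5 CPM was above the 30.7 CPM of AL+NaIO3 without replicate 3.

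The genes whose levels over the 12 libraries were most like the mean of the 10 melanin genes were Bace2 (r = 0.990), C2 (0.983), Ano6 (0.979), Rab27a (0.979), Lgi4 (0.975), Rbms2 (0.974), Smpdl3a (0.974), Lhfpl2 (0.971), App (0.966) and Edn3 (0.966). Bace2 encodes a protease that cuts Pmel in melanosomes, and Rab27a and Edn3 were also on the lists of melanosome genes and regulators. Over the 11 libraries without AL+NaIO3 replicate 3 the same genes had r from 0.742 (App) to 0.929 (Bace2). C2, a complement component, was at 0.908, and Rab27a at 0.864. The list depended on that library, since only 4 of the 10 (Bace2, C2, Rab27a and Ano6) were also among the 10 most alike over the 11 libraries, which included Clec16a (0.912) and Top1mt (0.879, against -0.27 over 12). Bace2 was at 38.7 CPM in replicate 3 against a median of 5.39 CPM in the others.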

How the data were processed

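RNA from 12 eye tissue samples was poly(A) selected, prepared with a stranded kit and sequenced with reads of 150 bases (single-end in the methods, paired-end in the labels). The authors aligned the reads with HISAT2, and the deposited gene table gives raw read counts per gene and library and, beside them, FPKM made by the authors (StringTie is named in the processing notes), with replicates kept apart. The tool and strand setting of the counting are not given in the sources used here. The notes name GRCm39, but 99.9% of the genes matched by symbol overlap their RefSeq position in GRCm38.p6 and 16.4% of those matched by Ensembl ID overlap their position in GRCm39, so coordinates are given as GRCm38. A deposited table of the authors' fold changes and p-values between groups was not used.

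Counts as deposited were tested with edgeR 4.0.16 (R 4.3.3) by the quasi-likelihood test with TMM scaling and the filterByExpr filter, on the 6 libraries of each pair of groups, and on 12 for the interaction, with Benjamini-Hochberg adjustment over all genes tested. A call took an adjusted p under 0.05 and, between groups, a fold change of at least 1.5. The procedure was tested on simulated data. CPM use TMM over 12 libraries, and r uses log2 CPM with a prior count of 2. DESeq2 1.42.0, other scalings and filters, a fit of all 12 libraries, the replicate number as a block and leaving out each library were tried as alternatives. RPE marker ratios without AL+NaIO3 replicate 3 (also with Rpe65 alone) were added after seeing the data.

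No 2 libraries of the same group agreed within sampling noise. The table lists 3003 genes at 0 in all libraries and 36 symbols more than once, none of them a melanin gene. The melanin genes, the gene lists and the tests were chosen with earlier results of these data known. Named genes are the 10 melanin genes, from the melanosome and regulator lists every gene called and those with the largest rise and fall in AL+NaIO3 vs AL+PBS and IF+NaIO3 vs AL+NaIO3, Rpe65, Ttr, Rlbp1 and Best1 of the RPE markers, and the 10 genes most like the melanin genes. Other genes were named after their values were seen.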

Additional observations from a re-analysis of the deposited data

Results flagged for a closer look

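Slc24a5 was the one melanin gene whose NaIO3 libraries all lay on opposite sides of the PBS mean on the 2 diets. Against the mean log2 CPM of the PBS libraries on the same diet, the AL+NaIO3 libraries were higher by 1.08 on average and the IF+NaIO3 libraries differed by -0.74. The difference between the diets was tested by the diet by injection interaction of edgeR's quasi-likelihood test, which gave -1.92 (SE 0.41) and, over all 15970 genes, an adjusted p of 0.153. Over the alternatives tried the adjusted p ran from 0.00138 to 0.431.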

How the results depend on the processing

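With upper quartile scaling, a minimum of 10 counts in each library or no fold change minimum, every melanin gene kept its direction and none was called. DESeq2 called 411, 478, 192 and 72 genes in AL+NaIO3 vs AL+PBS, IF+NaIO3 vs AL+NaIO3, IF+PBS vs AL+PBS and IF+NaIO3 vs IF+PBS and 217 in the interaction, with 1, 1, 1, 2 and 1 melanin genes among them. Slc24a5 was called in all 5, and the second in IF+NaIO3 vs IF+PBS was Pmel. The melanin genes with an adjusted p from DESeq2 were 6, 6, 10, 4 and 7 of 10 in these comparisons. Without a filter on low counts 19, 16, 0 and 2 genes and, in the interaction, 13 were called, and a fit of all 12 libraries called 177 in AL+NaIO3 vs AL+PBS and 190 in IF+NaIO3 vs AL+NaIO3. No melanin gene was called in these settings. The cause of these differences was not tested.

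With the replicate block, 28 genes were called in AL+NaIO3 vs AL+PBS, 28 in IF+NaIO3 vs AL+NaIO3, 5 in IF+PBS vs AL+PBS and 8 in the interaction. Of the melanin genes 0 were called, and Oca2 turned to -0.13 in AL+NaIO3 vs AL+PBS. Same-numbered samples did not deviate together more than others did (r from -0.10 to 0.14 over 18 pairs, against -0.11 to 0.14 over 36 pairs of unlike number). The check gave no sign of pairing by number, but with so few libraries it cannot exclude a weak one, and the labels name none.

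Each library was left out in turn. In AL+NaIO3 vs AL+PBS the genes called ran from 0 (without AL+PBS replicate 1) to 90 (without AL+NaIO3 replicate 3), 0 melanin genes were called in each fit, their median ran from -0.66 to 1.45, and the genes that changed sign were Tyr (-0.54 to 2.19), Tyrp1 (-0.62 to 3.23), Dct (-0.18 to 1.49), Pmel (-0.83 to 2.51), Mlana (-0.79 to 0.93), Slc45a2 (-0.70 to 2.29), Oca2 (-0.93 to 0.99) and Gpr143 (-0.83 to 1.05). In IF+NaIO3 vs AL+NaIO3 the genes called ran from 0 (without IF+NaIO3 replicate 1) to 75 (without AL+NaIO3 replicate 3), 0 melanin genes were called in each fit, their median ran from -2.14 to -0.37, and the genes that changed sign were Oca2 (-1.87 to 0.044), Gpr143 (-1.95 to 0.11) and Mitf (-0.81 to 0.11). In IF+PBS vs AL+PBS the genes called ran from 1 (without AL+PBS replicate 2) to 472 (without IF+PBS replicate 1), the melanin genes called from 0 to 1 and their median from -0.52 to -0.19, and the genes that changed sign were Gpr143 (-0.31 to 0.31) and Mitf (-0.57 to 0.27). In IF+NaIO3 vs IF+PBS the genes called ran from 0 (without IF+PBS replicate 3) to 197 (without IF+PBS replicate 1), the melanin genes called from 0 to 1 and their median from -0.66 to -0.45, and the gene that changed sign was Slc45a2 (-0.43 to 0.053). In the diet by injection interaction the genes called ran from 3 (without AL+PBS replicate 3) to 366 (without AL+NaIO3 replicate 1), the melanin genes called from 0 to 1 and their median from -2.03 to 0.047, and the genes that changed sign were Tyr (-2.66 to 0.068), Tyrp1 (-3.63 to 0.21), Slc45a2 (-2.45 to 0.53), Oca2 (-1.64 to 0.28), Gpr143 (-2.03 to 0.026) and Mitf (-0.82 to 0.28). In the first 2 of these comparisons every change of sign came from leaving out AL+NaIO3 replicate 3. Slc24a5 kept its sign in every one of these fits. By edgeR's quasi-likelihood test it was called without IF+PBS replicate 1 in IF+PBS vs AL+PBS (0.77, adjusted p = 0.0269), where 472 genes were called. In IF+NaIO3 vs IF+PBS without that library (-0.76, adjusted p = 0.0333 by the same test) it was 1 of 197 called. In the interaction without AL+NaIO3 replicate 1 (-2.20, adjusted p = 0.0189 by that test) it was 1 of 366. Each was the leave-one-out fit with the most genes called in its comparison, so calls rose over the whole table there.

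Depth was lowest for Gpr143, with 21 to 260 reads per library. The mean log2 ratio of the melanin genes to RPE markers went from 1.32 to 0.42 (AL+NaIO3 vs AL+PBS) and from -1.67 to -0.77 (IF+NaIO3 vs AL+NaIO3) without AL+NaIO3 replicate 3.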
